A study of Glycyrrhiza uralensis with 30 samples.

Results

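Shoots of *Glycyrrhiza uralensis*, a licorice, were compared after 12 h in polyethylene glycol (PEG) and in control. The comparison holds 6 of the 30 libraries of the series, chosen by their sample descriptions: 3 libraries of aboveground parts (stems and leaves) labelled drought stress 12h, numbered 7, 8 and 9 in their titles, and 3 of aboveground parts labelled CK, numbered 31, 32 and 33. The 12 h plants had stood in MS nutrient solution with PEG 6000 at 100 g/L. The control plants are the 0 h group and are labelled as given distilled water. All are labelled as seedlings of 60 days, while the growth protocol speaks of 1 week in hydroponics, and no genotype, transgene or clone is given. The labels list no control taken at 12 h, so the PEG, the medium and the elapsed 12 h cannot be told apart in what follows. The labels do not say if replicate libraries stem from different plants; the p-values below then measure library-to-library spread, which may be technical.

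PEG 6000 is a polymer too large to enter plant cells readily, and it lowers the water potential of the medium so that roots take up water less easily. In plants in general, such osmotic stress raises abscisic acid, which closes stomata, and shoots respond with protective proteins and compatible solutes while growth and photosynthetic gene expression are often reduced. Licorice is known for the sweet saponin glycyrrhizin, which accumulates in its underground parts. The files give gene identifiers with no names, so which of these pathways the genes below belong to was not analysed here. Of the genes that changed, 4 are given by identifier, and the rest are described as groups by level, by timing and by the part of the plant in which they are expressed.

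The values are TPM, transcript abundances scaled within each library to a nominal sum, for 34445 listed genes. Read depth is unknown, since TPM does not keep it. The listed genes of a library summed to 952418 to 966624 TPM at 12 h and to 952700 to 956204 TPM in control. At 12 h 21020 to 21776 genes reached 1 TPM, against 20587 to 21486 in control. Between 8.71% and 9.79% of a library at 12 h, and between 6.50% and 8.05% in control, belonged to its 10 most abundant genes, ranges that do not overlap. Over the tested genes, the log2(TPM + 1) values of pairs of libraries had Pearson correlations of 0.884 to 0.908 within 12 h, 0.869 to 0.903 within control and 0.851 to 0.902 between the groups, so a 12 h library was often as like a control library as it was like another of its own group. These correlations are across genes, which are not independent replicates.

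Few shoot genes passed the test at 12 h, and most of those that did were lower. Of 23541 genes tested, 204 passed limma's test at a Benjamini-Hochberg adjusted p under 0.05, which is 0.867% of those tested. Of these, 55 rose (0.234% of tested genes) and 149 fell (0.633%). The test used log2(TPM + 1), a scale that understates the change of genes with low TPM. An unadjusted p under 0.05 was reached by 2222 genes, where 1177 would be 5% of those tested.

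The changes that passed were mostly large. With 3 libraries per group mainly large estimates can pass, so these sizes do not describe the response as a whole. Among the 51 genes that rose and had a control value above 0, the median log2 change was 1.88, with a range of 0.88 to 4.88. For 45 of them it was at least 1 and for 6 at least 3. Among those that fell the median was -2.02, with a range of -5.00 to -0.68. For 145 of the 149 it was at least 1 in size and for 25 at least 3 in size. These are changes of log2(TPM + 1), so at low levels the fold in TPM is larger. The median change over all tested genes was 0.10, which moved to -0.0032 after median-ratio scaling, so a change of 0.10 stands for no change relative to the typical gene. With that scaling 33 of the 55 rises and 117 of the 149 falls were still called. All 204 kept their sign, which a shift of this size could hardly have reversed. In each of the 204 genes the 12 h and control libraries did not overlap. Among all tested genes, the 12 h libraries lay wholly above control for 9.36% and wholly below it for 5.29%. Unlike the calls, this wider set thus leaned to rises, on values not scaled for the median change of 0.10.

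**Figure D1:**
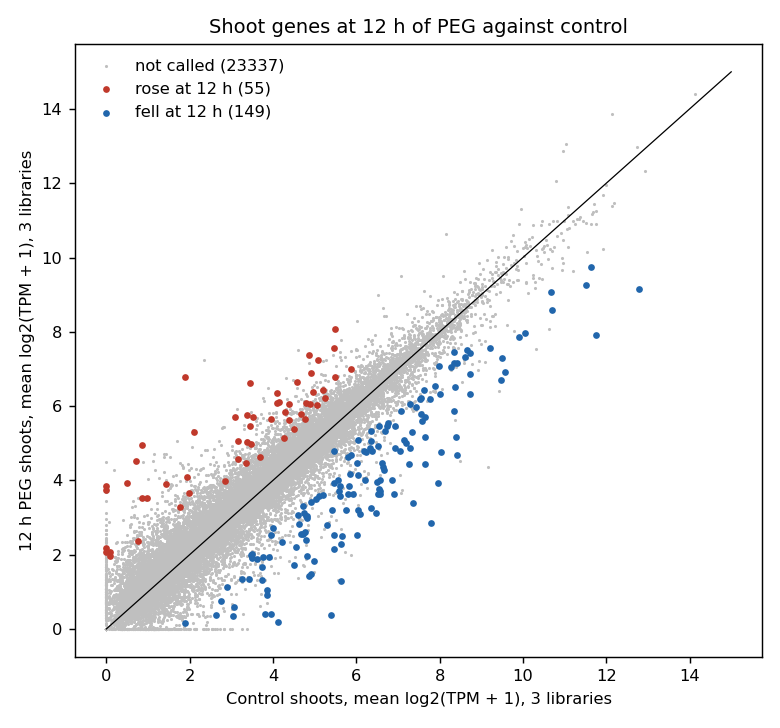
Mean log2(TPM + 1) of 3 libraries of shoots at 12 h of PEG (vertical axis) against 3 control libraries (horizontal axis) for each tested gene, with the line of equal values. The 55 genes that rose (red) lie above the line at low to middle levels, and the 149 that fell (blue) lie below it and extend to high control levels.

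The precision of the test sets what can be said of genes that did not pass. The limma 95% interval of the log2 change lay wholly within -1 to 1 for 9705 genes, 41.2% of those tested. The median interval reached 0.80 to either side. For the rest of the genes that did not pass, a log2 change of 1 or more in size, in at least 1 direction, lay within the interval.

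The counts depend on each of the 6 libraries. Leaving out treated library 7, 8 or 9 left 33, 22 or 23 rises and 84, 94 or 98 falls. Leaving out control library 31, 32 or 33 left 22, 32 or 30 rises and 110, 95 or 106 falls. Of the 55 rises 10, and of the 149 falls 69, were called in all 6 of these fits.

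The genes that fell included some of the most abundant of control shoots. The gene with the highest control level among them was at 621 ± 320 TPM at 12 h and 7167 ± 1532 TPM in control (SD, n = 3 each). The next 4 by control level averaged 297, 883, 638 and 410 TPM at 12 h, against 3447, 3203, 2983 and 1684 TPM in control. Summed over the 149 genes, TPM came to 7030, 10408 and 7982 in libraries 7, 8 and 9 of 12 h, against 38965, 42869 and 37182 in control libraries 31, 32 and 33. These genes thus held 0.882% ± 0.175 of the listed TPM at 12 h and 4.16% ± 0.297 in control (SD, n = 3 each). Since the genes were chosen by this same contrast, the sums describe the size of the change and carry no test.

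The genes that rose were of lower level and took up little of the RNA pool. The median over the 55 genes of the group mean was 48.4 TPM at 12 h and 10.9 TPM in control, and the highest mean was 272 TPM at 12 h. Their summed TPM was 2880, 3336 and 3263 in libraries 7, 8 and 9 of 12 h, against 835, 839 and 890 in control libraries 31, 32 and 33. That is 0.329% ± 0.023 of the listed TPM at 12 h and 0.0896% ± 0.0033 in control (SD, n = 3 each). For 4 of the 55, all control libraries were listed at 0, so no fold is given for them. Their 12 h values were 2.49 to 20.05 TPM. At least 1 of these 4 met the filter (1 TPM or more in 3 libraries) through its 12 h libraries alone. Its means were 0 TPM at 2 and 24 h and 0.25 TPM at 6 h. So did a further gene that rose, with means of 0.06 TPM in control, 0 TPM at 2 and 6 h and 0.057 TPM at 24 h. Genes admitted this way lie above all 12 other shoot libraries by the filter itself. No gene that fell was listed at 0 in all 12 h libraries.

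Falls were most frequent at high levels. Genes were grouped by their mean log2(TPM + 1) over the 6 compared libraries, turned back to TPM, on which the sign of the difference between the groups has no bearing; this grouping was chosen after the data were seen. Of 1480 tested genes at 100 TPM or more, 35 fell (2.36%) and 1 rose (0.0676%). Of 11197 genes between 10 and 100 TPM, 82 fell (0.732%) and 37 rose (0.33%). Of 8804 genes between 1 and 10 TPM, 32 fell (0.363%) and 17 rose (0.193%), and of 2060 genes below 1 TPM none was called. The median SE of the log2 change was 0.30 in the highest class, 0.28 between 10 and 100 TPM, 0.48 between 1 and 10 TPM and 0.53 below that, so low classes were tested less sharply. Grouped by the mean TPM of all 15 shoot libraries, which rests mostly on times other than 12 h and so places genes low at 12 h in higher classes, 74 of 1686 genes at 100 TPM or more fell and 1 rose.

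Among the genes that fell, Glyur000618s00030209 had the largest log2 change. It was at 0.10, 0.69 and 0.20 TPM in libraries 7, 8 and 9 of 12 h, against 36.5, 45.6 and 41.1 TPM in control libraries 31, 32 and 33. The gene was thus nearly absent from all 3 treated libraries and at a steady middle level in all 3 controls. Its log2 change was -5.00 (SE 0.33, limma adjusted p = 3.32e-05), and it passed in each of the 14 alternative fits, with adjusted p from 6.81e-06 to 0.0132. At the other times in PEG it was not low: its mean at 2, 6 and 24 h was 45.8 ± 9.8, 47.1 ± 14.3 and 91.4 ± 38.9 TPM (SD, n = 3 each).

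Glyur000183s00013020 had the largest difference in TPM and is the abundant gene given first above. Its values were 531, 976 and 355 TPM in libraries 7, 8 and 9 of 12 h, against 8903, 6002 and 6595 TPM in control libraries 31, 32 and 33. Every treated library was below every control, with a wide gap between the groups. The log2 change was -3.63 (SE 0.48, limma adjusted p = 0.0026). With only the 6 compared libraries in the fit the change was the same and the adjusted p was 0.0584, and over the 14 alternatives it ran from 6.75e-04 to that value. At 2, 6 and 24 h the gene stood at 3958 ± 1123, 5628 ± 1030 and 4373 ± 1683 TPM (SD, n = 3 each).

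Among the genes that rose, Glyur000253s00020238 had the largest log2 change. It was at 57.9, 193 and 113 TPM in libraries 7, 8 and 9 of 12 h, against 0.95, 1.86 and 8.20 TPM in control libraries 31, 32 and 33. The groups were far apart, but both were spread over several-fold. The log2 change was 4.88 (SE 0.83, limma adjusted p = 0.0129). The call is not firm: 6 of 14 alternatives put the adjusted p above the threshold, among them the fits without treated library 8 (0.0671) or 9 (0.0520), without control library 31 (0.0597) or 32 (0.0569) and with the 6 libraries alone (0.0627). Over all 14 it ran from 0.0031 to 0.186. At 2, 6 and 24 h its level was 2.18 ± 1.98, 7.92 ± 4.32 and 1.52 ± 2.63 TPM (SD, n = 3 each), with 1 library at 2 h and 2 at 24 h listed at 0.

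Glyur000492s00023501 was the gene that rose by the most TPM. It had 278, 239 and 300 TPM in libraries 7, 8 and 9 of 12 h, against 32.7, 40.4 and 62.7 TPM in control libraries 31, 32 and 33. The treated libraries lay close together and well above the controls. The log2 change was 2.61 (SE 0.42, limma adjusted p = 0.0094), and it passed in all 14 alternatives, with adjusted p from 0.0045 to 0.0479. At 2, 6 and 24 h it averaged 54.5 ± 33.3, 37.9 ± 12.3 and 127.5 ± 27.0 TPM (SD, n = 3 each), so the 24 h libraries also lay above the controls, at 112 to 159 TPM.

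**Figure D2:**
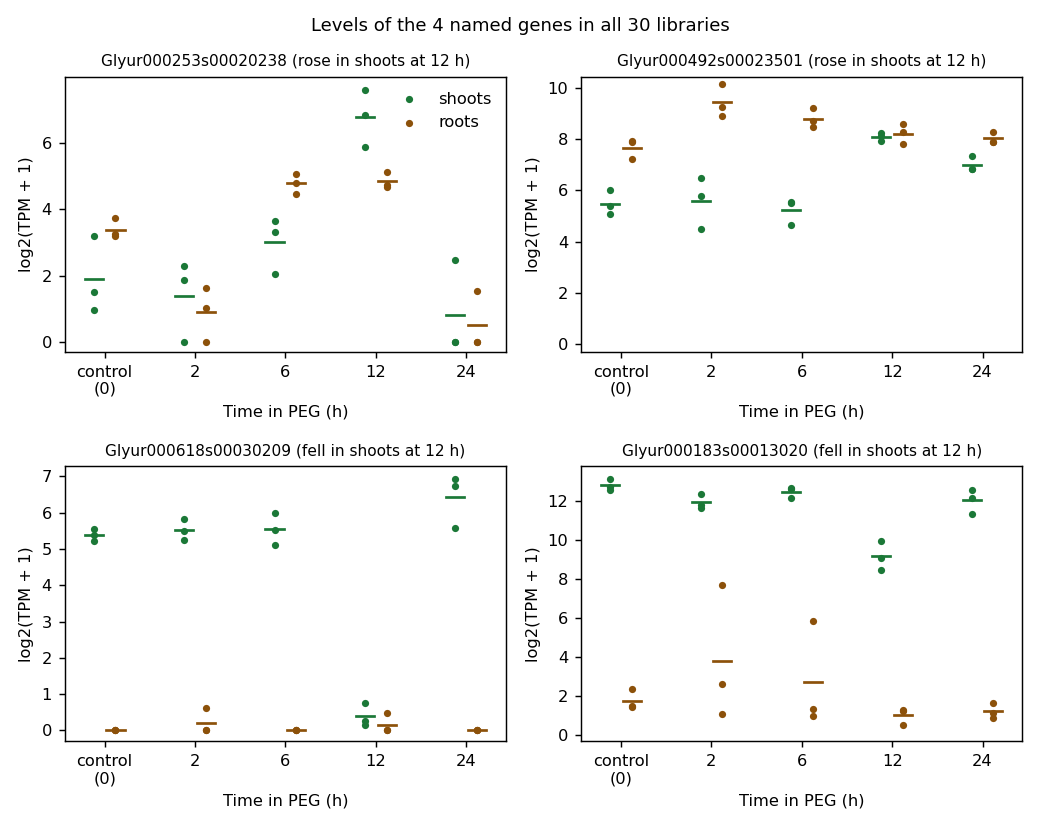
log2(TPM + 1) of the 4 named genes (vertical axis) against time in PEG (0 is control), in shoots (green) and roots (brown); each point is 1 library and each line the mean of 3. In shoots, the 3 libraries of 12 h stand above all other times for both genes that rose and below all other times for both genes that fell.

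Across the time course, the genes that fell were low at 12 h alone by their median, while the median of those that rose was higher at each time up to 12 h. The median log2(TPM + 1) over the 149 genes that fell lay between 6.02 and 6.47 in control libraries. It lay between 6.68 and 7.01 after 2 h, between 6.12 and 6.29 after 6 h, between 3.63 and 4.17 after 12 h and between 6.60 and 6.91 after 24 h. The 12 h libraries are thus the low ones, and the 24 h libraries lie above the controls. Over the 55 genes that rose the median lay between 3.53 and 3.61 in control libraries. It lay between 3.91 and 4.06 after 2 h, between 4.30 and 4.52 after 6 h, between 5.46 and 5.54 after 12 h and between 4.26 and 4.40 after 24 h. Here the 2, 6 and 24 h libraries all lie between control and 12 h, and the ranges of control, 2 h, 6 h and 12 h follow one another without overlap. The genes were chosen on the 12 h and control libraries, so the gap between those levels is there by choice, and comparisons of other times with control would share the same 3 controls; the levels are given without a test.

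The same genes were also counted against all other shoot libraries. In 109 of the 149 genes that fell (73.2%), all 3 libraries of 12 h were below every one of the other 12 shoot libraries, a pattern found in 1.4% of all tested genes. In 27 of the 55 that rose (49.1%), all 3 were above the other 12, against 2.49% of all tested genes. Every called gene already lay beyond the 3 controls, so much of these shares follows from the choice of genes. Of the 1246 tested genes wholly below control at 12 h, 330 were below all 12 others. Of the 2203 wholly above control, 586 were above all 12 others. Not all genes followed the list medians. Of the 149 that fell, 133 had their lowest group mean of log2(TPM + 1) at 12 h, which the choice of genes favours. At 24 h the mean was at or above control for 83 of the 149. Of the 55 that rose, 45 had their highest group mean at 12 h, and for 41 the 6 h mean lay between control and 12 h. Some genes had levels at 2 h and 24 h far below or far above those of control.

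**Figure D3:**
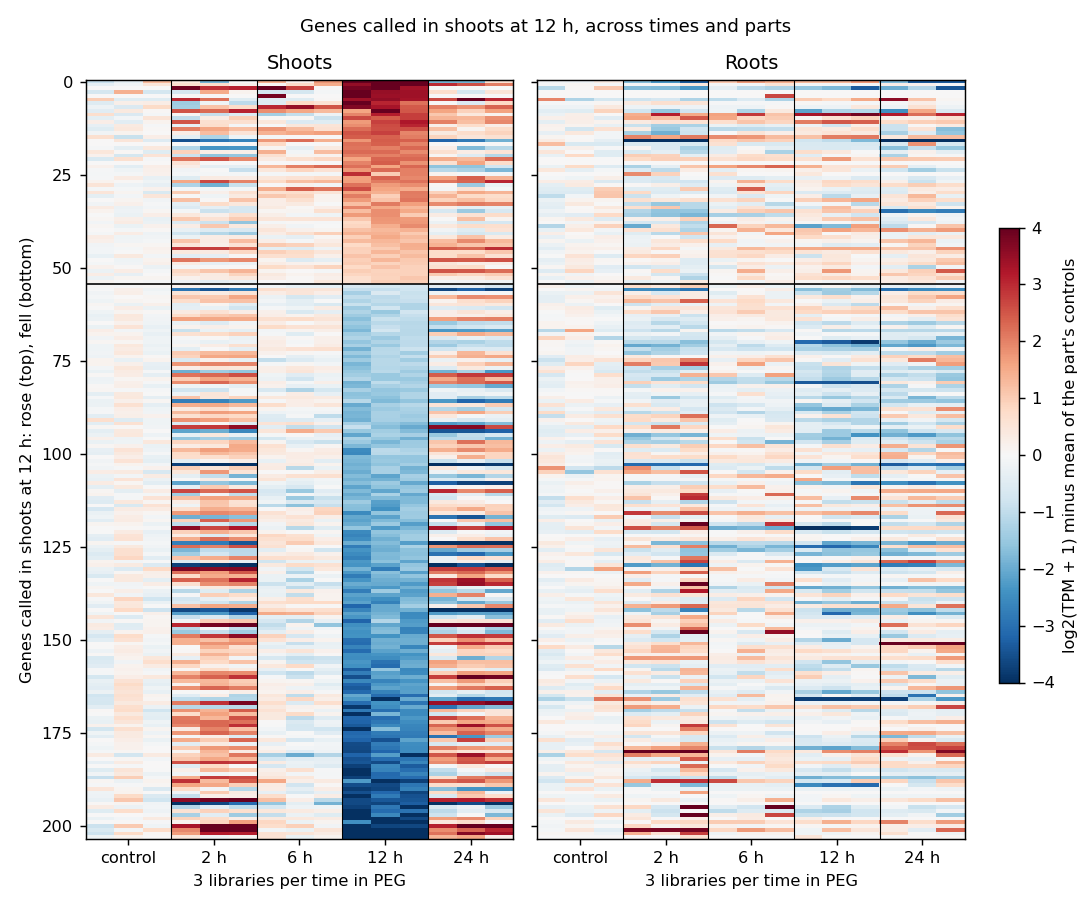
The 204 genes called in shoots at 12 h (rows; the 55 that rose above the black line, the 149 that fell below it, sorted by log2 change) in 15 shoot libraries (left) and 15 root libraries (right), 3 per time. Colour is log2(TPM + 1) minus the mean of the controls of the same part, cut at -4 and 4; the 12 h block of shoots carries 1 colour per group because the genes were chosen there, while 6 h is pale and 2 h and 24 h hold both colours.

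The tissue label could be checked without gene names by asking which genes are typical of each part. Genes were called shoot-biased or root-biased where the mean log2(TPM + 1) of the 9 shoot and 9 root libraries of 2, 6 and 24 h differed by at least 3, so the libraries compared here played no role. The 1072 shoot-biased genes had a median log2(TPM + 1) of 5.57, 5.92 and 5.94 in treated libraries 7, 8 and 9 and 5.88, 6.11 and 5.83 in control libraries 31, 32 and 33, against 0.92 to 1.35 in the 6 root libraries of 12 h and control. All 6 libraries therefore carry the profile of aboveground parts.

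Genes that fell were largely genes of the shoot. Of the 149, 82 were shoot-biased (55.0%) and none was root-biased. Seen from the list, 82 of 1072 shoot-biased genes fell (7.65%, against 0.633% of all tested genes) and 8 rose (0.746%, against 0.234%). Falls were more frequent at high levels, so the list was also read within classes of level. At 100 TPM or more over the 6 compared libraries 26 of 354 shoot-biased genes fell (7.34%), against 9 of 1126 others (0.799%), and between 10 and 100 TPM 40 of 622 fell (6.43%), against 42 of 10575 others (0.397%). Over the whole list the median log2 change was -0.13, beside 0.10 over all tested genes. With single libraries left out the list median ran from -0.23 to 0.0072, the latter without library 7 of 12 h. With median-ratio scaling it was -0.24, beside -0.0032 over all tested genes.

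Genes typical of roots rose in shoots about as rarely as all tested genes. Of 614 root-biased genes 509 were tested, of which 1 rose (0.196%, against 0.234% of all tested genes). None fell, where 0.633% of all tested genes did, so these low counts do not set the list apart. Their median log2(TPM + 1) was 1.76, 1.41 and 2.00 in libraries 7, 8 and 9 of 12 h, against 1.04, 1.14 and 1.84 in control libraries 31, 32 and 33. Control library 33 is thus as high as the treated ones. Their summed TPM was 9504 to 12891 at 12 h and 4015 to 11832 in control. The median log2 change of this list was 0.28 at 12 h and ran from 0.0971 to 0.615 with single libraries left out. The part of this shift in the calls was not tested, and in bulk tissue fewer cells of a type and less RNA per cell cannot be told apart.

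**Figure D4:**
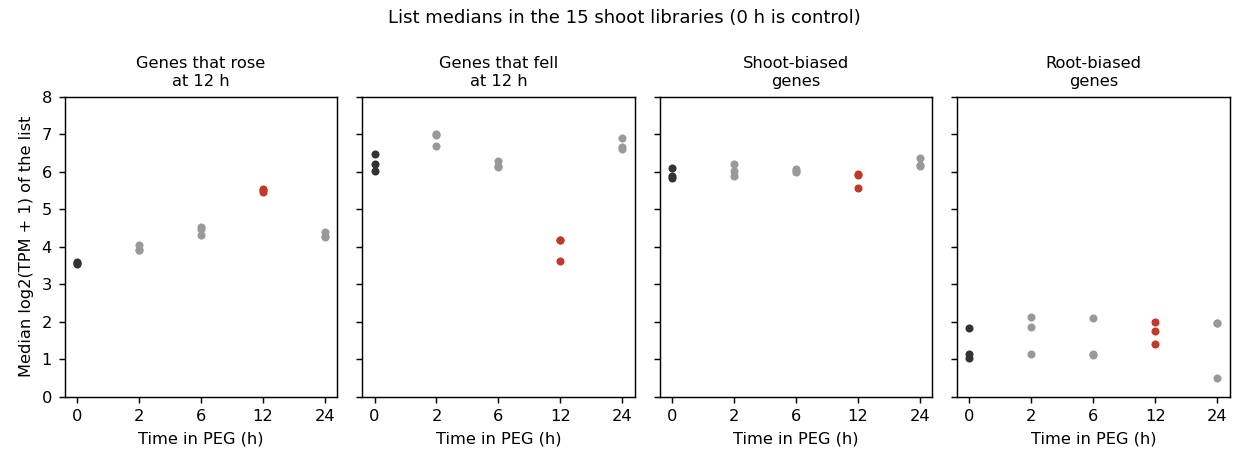
Median log2(TPM + 1) of 4 gene lists (panels) in each of the 15 shoot libraries (points) by time in PEG, with 12 h in red and control (0 h) in black. The genes that rose and fell at 12 h lie at 5.46 to 5.54 and 3.63 to 4.17 at 12 h, apart from all other times (the genes were chosen on 12 h against control), while the medians of shoot-biased and root-biased genes at 12 h overlap those of control.

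Roots of 12 h and control, 3 libraries each, show what the same genes did in the other part. Of the 149 genes that fell in shoots 127 were tested in roots, and there 24 fell (18.9%) and none rose, where 0.961% of all 23107 genes tested in roots fell and 1.36% rose. Their median log2 change in roots was -0.47, with quartiles of -1.08 and 0.07, beside 0.022 for all genes. The other 22 were not tested because roots hardly expressed them, with at most 2.02 TPM in any root library of 12 h or control. Of the 55 genes that rose in shoots 46 were tested in roots, of which 6 rose (13.0%) and none fell, with a median change of 0.40. Libraries of the 2 parts that carry the same number deviated together from their group means, with correlations across genes of 0.289 to 0.345 in the 6 pairs of 12 h and control, so the roots are not a wholly separate set.

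The size of the response was then compared directly between the parts, as the log2 change in shoots minus that in roots over all 30 libraries. It differed for 200 of 25420 genes, or 0.787%, in a fit that did not pair libraries of the same number. With the library number as a block it differed for 222. Of the 200, 154 passed the filter on low values in both parts. The other 46 did not, so for them the responses of the parts cannot be compared. Of the 149 genes that fell in shoots, 53 had a lower change in shoots at limma's adjusted p under 0.05 (0.559% of all tested genes), 37 of them among the 127 tested in both parts. A higher change in shoots (0.228% of all tested genes) was found for 3 of the 127, with the more negative value in roots. Of the 55 that rose, 14 had a higher change in shoots, 8 of them among the 46 tested in both parts, and none a lower one. The genes were chosen on the same shoot libraries, so these shares carry no further weight. For the rest of the 204 genes a difference between the parts was not shown, and equal responses were not shown either.

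The 4 named genes were also read in roots, and differences among these genes were not tested. Glyur000618s00030209 is a gene of shoots, listed at 0 in all 3 root controls and at 0.40, 0 and 0 TPM in roots of 12 h, so a fall in roots could not have been seen and the responses of the parts cannot be compared. Glyur000183s00013020 was at 1.09 ± 0.54 TPM in roots of 12 h and 2.61 ± 1.40 TPM in root controls (SD, n = 3 each). At that level a fall as large as in shoots could not have been seen. The difference of -2.87 did not pass (interval -6.11 to 0.37, limma adjusted p = 0.672). Its spread included single root libraries at 208 TPM (2 h) and 57.0 TPM (6 h). With the 12 compared libraries alone the limma adjusted p was 0.0351. Glyur000253s00020238 had 24.4, 25.4 and 34.2 TPM in roots of 12 h, against 8.46, 8.08 and 12.2 TPM in root controls, a log2 change of 1.46 that did not pass (limma adjusted p = 0.128). Its difference of 3.42 between the parts did not pass either (interval 1.38 to 5.46, adjusted p = 0.137). Glyur000492s00023501 was a gene of higher level in roots, at 303 ± 81 TPM at 12 h and 207 ± 53 TPM in control (SD, n = 3 each), so that shoots of 12 h came to the level of roots, and its difference of 2.06 did not pass (interval 0.92 to 3.21, adjusted p = 0.0951).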

How the data were processed

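Per the file headers, the authors deposited 1 table of TPM per library, for the same 34445 genes. Tools listed in the submitters' processing notes, with no version or role, are HISAT2, fastp, RSEM, StringTie, edgeR and DESeq2; for the build and gene models, the sources used here give no name. How reads of near-identical copies were assigned is not stated. Libraries were grouped by sample description; no 2 were identical.

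log2(TPM + 1) was tested with limma 3.58.1 in R 4.3.3 (mean-variance trend, Benjamini-Hochberg adjustment over all tested genes, threshold 0.05). Genes entered a fit with 1 TPM or more in 3 or more of its libraries. The shoot and root comparisons each used the 15 libraries of the part, so that 5 groups share the spread, and the comparison of responses used all 30. Named genes were, among called genes with no overlap of groups and at least 10 TPM in the higher group, the largest log2 change and the largest TPM difference in each direction. The genes and lists were chosen with earlier results of these data known. Lists of drought and tissue marker genes by name could not be applied. Deviations of shoot and root libraries of the same number correlated in all 6 pairs compared (0.289 to 0.345, and 0.0973 to 0.345 over 15 pairs). The main comparison of responses did not use this pairing. Only 1 alternative did, with the library number as a block. Alternatives were no filter, at least 5 TPM, a pseudocount of 0.1, quantile normalization, median-ratio scaling, no trend, library quality weights, only the compared libraries, the block, and leaving out each library. Figures used matplotlib 3.10.9.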

Additional observations from a re-analysis of the deposited data

Results flagged for a closer look

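The log2 change at 12 h differed between shoots and roots for 200 genes (limma, adjusted p under 0.05), of which 154 passed the filter on low values in both parts. Groups of 3 libraries are too small for a test of single outlying libraries.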

How the results depend on the processing

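The 204 calls in shoots (55 rises, 149 falls) became 41 (11 and 30) with only the 6 compared libraries in the fit, and 356 (153 rises) with library quality weights. Leaving out 1 library gave 116 to 136 calls, 22 to 33 rises and 84 to 110 falls. Of the rises 5, and of the falls 27, passed in all 14 alternatives. The 536 calls in roots became 348 with the 6 compared libraries, 1594 with weights and 187 to 397 with a library left out. The 200 differences between the parts became 122 with a pseudocount of 0.1, 379 with weights and 106 to 173 with a library left out. With the library number as a replicate block they became 222, and the block changed no call of a named gene. No setting reversed a named gene. The differences between the parts passed for Glyur000253s00020238 with weights, for Glyur000492s00023501 with weights or the 12 compared libraries alone, and for Glyur000183s00013020 with the 12 libraries alone. Unknown depth limits what can be said of genes at a few TPM.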

Other observations

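Of the 200 genes whose change at 12 h differed between the parts, 70 were called in shoots, 97 in roots, 3 of them in both, and 36 in neither. So 18.0% of these differences came from genes that neither comparison called.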
